A study of Mus musculus with 33 samples.

Results

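The genes described here are 39 components of the DNA replication machinery and of the supply of its building blocks, followed in mouse retinal progenitor cells that were kept in culture for up to 35 days under conditions directed at cone or rod photoreceptors. They were matched by gene symbol, and all 39 were found among the 47729 genes of the count tables. Per the labels, the cells were retinal progenitor cells of C57BL/6J mice from retina at embryonic day 14. The 33 libraries fell into 11 groups of 3. Day 0 held untreated cells, cells primed for cone induction and cells primed for rod induction. Days 5, 12, 21 and 35 held a cone culture, given COCO protein (which blocks BMP, Wnt and TGF-beta ligands outside the cell), and a rod culture, given taurine and retinoic acid. Untreated libraries existed at day 0 only, so no culture without a factor was followed over time. The labels do not give the length of priming, the medium or the number of animals, and nothing says that replicates came from separate cultures or animals. The p-values therefore measure the spread between these libraries, which may be technical.

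Before a cell divides, the origin recognition complex, Cdc6 and Cdt1 load the ring-shaped Mcm2 to Mcm7 helicase onto replication origins. Cdc45, the GINS complex and Mcm10 switch the helicase on, DNA polymerase alpha with primase starts each strand, and polymerases delta and epsilon extend it while held by the Pcna clamp, which the Rfc complex loads. Many of these genes are transcribed as cells enter S phase, under the E2F family of transcription factors, and are low in cells that have left the cell cycle. In the retina, progenitor cells divide, and neurons, photoreceptors among them, do not.

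Counts assigned to genes ran from 7511837 to 19166442 per library (median 12985662). The 39 genes together received 5580 to 21591 of these counts in a library, which was 0.0400% to 0.200% of the total. All 39 passed the filter on low counts, and the lowest single value was 6 counts (Pole2). Levels are given as CPM, counts scaled to library size with the TMM factors of edgeR. Retinal progenitor markers, a list of 10 genes, were all detected in untreated cells (summed level 1138 to 1234 CPM). Transcripts of other cells were already present there: 10 of 10 photoreceptor markers had counts, with a summed level of 950.8 to 1276 CPM, and microglia markers summed to at most 1.41 CPM. In bulk RNA, fewer cells of a type and less RNA per cell cannot be told apart. Some libraries stood apart from their group. Rod day 12 replicate 2 lay at -11.9 on the first principal component (60.2% of the variance), against 57.5 and 35.3 for the other rod day 12 libraries, and it had the lowest level of its group for 37 of the 39 genes. Cone primed replicate 2 was the highest of its group for 38 genes, and rod primed replicate 3 was the highest of its group for all 39. Counts of genes are therefore also given without the libraries that moved them most.

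Summed over the 39 genes, the level was 1005, 929.6 and 1130.4 CPM in the untreated libraries and 976, 1339 and 906 CPM in the cone primed ones. Rod primed libraries held 1525, 1626 and 1939 CPM, each above every other library in the study. At day 5 the cone culture held 593, 649 and 676 CPM and the rod culture 1245, 1020.2 and 1112 CPM, and these groups did not overlap. At day 12 the order was no longer visible: the cone libraries had 836, 846 and 1101 CPM and the rod libraries 1087, 631 and 918 CPM. At day 21 the rod libraries (1073, 916 and 836 CPM) again all lay above the cone libraries (740.3, 619 and 679.8 CPM). By day 35 both cultures were low and overlapped, with 759, 479 and 582 CPM for cone and 512, 763 and 702 CPM for rod.

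**Figure D1:**
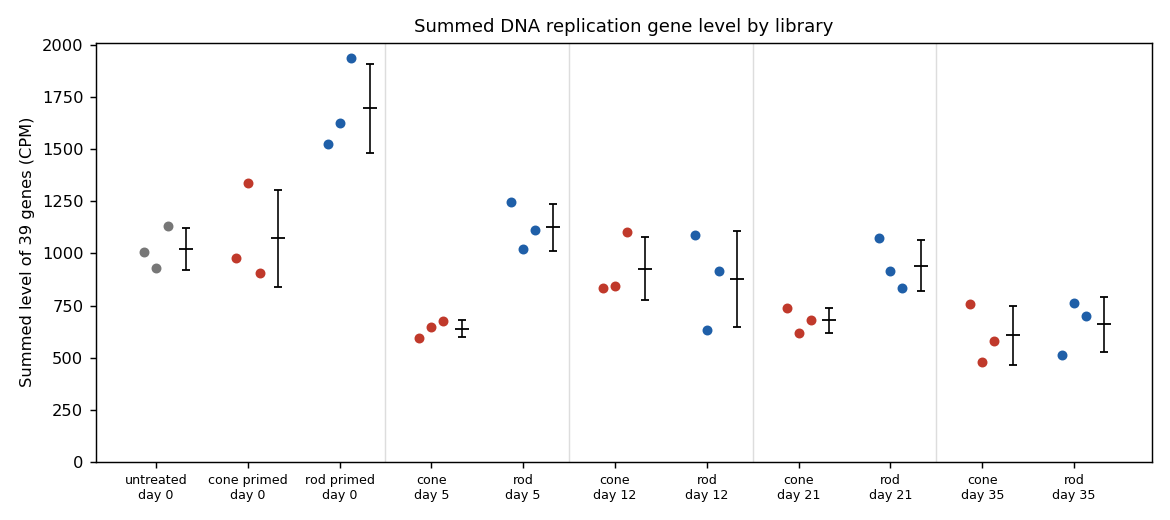
Summed level of the 39 DNA replication genes in CPM (vertical axis, from 0) in each of the 33 libraries (points, by group on the horizontal axis), with the mean and SD of each group in black. The rod primed libraries (1525 to 1939 CPM) lie above all others, and the cone day 5 libraries (593 to 676 CPM) lie below all rod day 5 libraries.

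The highest group mean was found in rod primed cells for 36 of the 39 genes and at rod day 21 for the other 3. Lowest means were spread more widely, over cone day 35 (16 genes), cone day 5 (11), cone day 21 (6), rod day 35 (5) and cone day 12 (1). The map of group means by gene shows the same column of high values for rod primed cells in every functional group. It also shows that Rfc3, a small subunit of the clamp loader, took a course unlike that of its partners, with high values in the rod culture up to day 35.

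**Figure D2:**
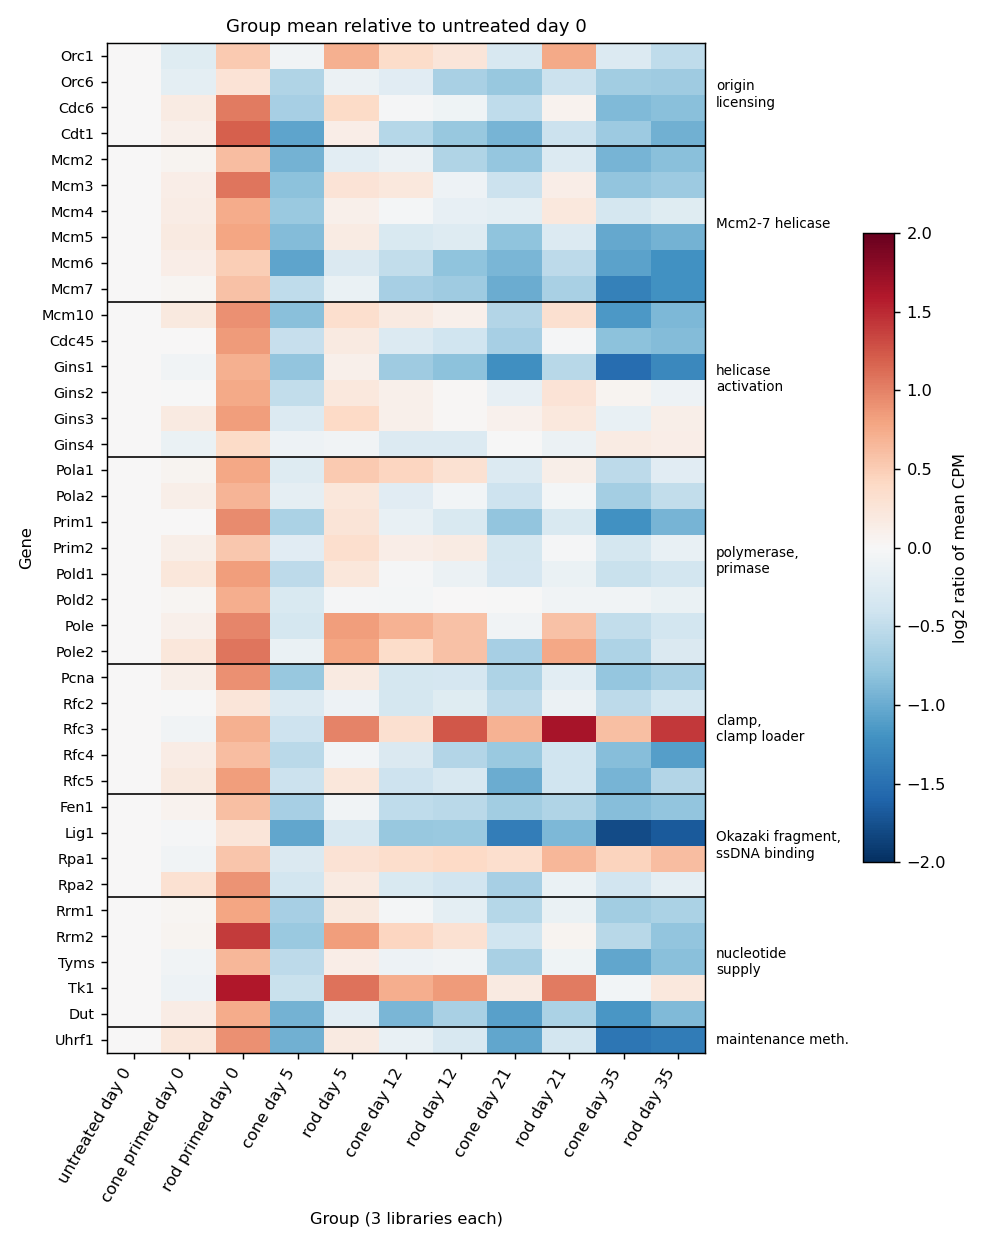
Group mean of each gene (rows, grouped by role) relative to the untreated mean of that gene, as a log2 ratio of mean CPM (colour; red higher, blue lower), for the 11 groups (columns, 3 libraries each). Rod primed cells are red in all 39 rows. Rfc3 stays red in the rod culture at all 4 later days, while most other rows turn blue by day 35. Rpa1, Tk1 and Gins3 also stay above their untreated means at all 4 later days of the rod culture.

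Because the members moved together, the 250 bases upstream of their transcription start were searched for 3 short motifs on both strands, using RefSeq promoters on GRCm38.p6. Of the 39 genes, 32 had an entry. An E2F-type sequence (TTTCCCGC or TTTGGCGC) was present in 6 of them (18.8%: Cdc6, Gins3, Mcm5, Mcm6, Mcm7 and Pola1), against 1.51% of 27025 genes with a promoter of the same length. The CCAAT motif, bound by the factor NF-Y, was present in 20 (62.5%), against 37.5% of all genes. The cell cycle homology motif TTTGAA was present in 5 (15.6%), against 18.3% of all genes. Median GC content was 58.0% for the members and 52.4% for all promoters, and the shares were not matched for it. These matches describe the letters and do not show binding. The 5 stretches printed here belong to genes whose values are given below. Mcm5 has both kinds of match and Cdc6 the E2F-type match alone. Mcm3 has repeated CCAAT motifs and Rrm2 a CCAAT motif near the start. Rfc3 was included as a gene that rose from primed cells to day 35 in both cultures. Each stretch runs 5′ to 3′ along the strand of its gene and ends at the base before the RefSeq start. This start can differ from the deposited gene position. By the deposited positions, the whole Cdc6 stretch and the last bases of the Rrm2 and Rfc3 stretches lie inside the gene. Capitals mark the matches (on the opposite strand CCAAT reads ATTGG, and the E2F-type sequences read GCGGGAAA or GCGCCAAA).
Mcm5 (chr8:75109259-75109508, plus strand): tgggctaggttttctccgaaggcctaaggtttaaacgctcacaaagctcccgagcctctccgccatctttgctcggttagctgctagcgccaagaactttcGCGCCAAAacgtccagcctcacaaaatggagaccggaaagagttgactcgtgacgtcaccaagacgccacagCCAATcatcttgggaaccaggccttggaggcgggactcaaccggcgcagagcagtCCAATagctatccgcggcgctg
Cdc6 (chr11:98907901-98908150, plus strand): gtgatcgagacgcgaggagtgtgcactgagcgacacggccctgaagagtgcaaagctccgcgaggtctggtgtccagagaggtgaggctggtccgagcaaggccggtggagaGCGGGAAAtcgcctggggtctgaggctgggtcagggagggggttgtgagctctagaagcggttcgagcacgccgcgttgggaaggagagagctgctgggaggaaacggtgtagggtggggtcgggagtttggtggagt
Mcm3 (chr1:20820313-20820562, minus strand): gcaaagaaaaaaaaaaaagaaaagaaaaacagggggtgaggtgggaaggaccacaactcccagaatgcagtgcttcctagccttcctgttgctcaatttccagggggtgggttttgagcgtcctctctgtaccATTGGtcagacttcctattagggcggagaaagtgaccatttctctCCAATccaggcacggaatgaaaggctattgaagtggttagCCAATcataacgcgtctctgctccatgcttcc
Rrm2 (chr12:24708004-24708253, plus strand): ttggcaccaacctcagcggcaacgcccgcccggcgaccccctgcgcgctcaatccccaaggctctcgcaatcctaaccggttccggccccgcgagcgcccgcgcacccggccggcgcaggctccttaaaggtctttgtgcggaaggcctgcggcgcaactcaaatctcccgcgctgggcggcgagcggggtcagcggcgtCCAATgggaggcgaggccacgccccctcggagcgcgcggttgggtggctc
Rfc3 (chr5:151651209-151651458, minus strand): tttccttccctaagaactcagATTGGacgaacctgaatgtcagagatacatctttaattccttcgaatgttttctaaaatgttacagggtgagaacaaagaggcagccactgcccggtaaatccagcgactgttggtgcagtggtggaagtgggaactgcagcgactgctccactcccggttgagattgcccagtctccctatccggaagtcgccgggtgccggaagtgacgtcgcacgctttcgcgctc
Counted from the start, the Mcm5 matches lay at -149 to -142 (E2F-type), -77 to -73 and -22 to -18 (CCAAT), and the single Rrm2 match at -50 to -46. In Rfc3 the only match was a CCAAT motif far from the start, at -229 to -225. This was not particular to Rfc3: Cdt1, Dut, Lig1, Pola2, Pold1, Pole2, Rfc4, Rfc5, Tk1 and Tyms had no match to any of the 3 motifs. Whether a motif went with the course of a gene was not tested.

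Priming separated the 2 conditions. A gene is called changed below where its Benjamini-Hochberg adjusted p in edgeR's quasi-likelihood test, taken over all 18150 genes tested, was under 0.05. Between cone primed and untreated cells edgeR called 0 of the 39 genes (0.0% of all genes were called), 0 had an unadjusted p under 0.05, and DESeq2 and voom also called 0. Fitted differences lay between -0.20 and 0.30 on the log2 scale. Between rod primed and untreated cells 24 of the 39 were higher and 0 lower, while 6.71% of all genes were called higher and 3.56% lower. The median log2 fold change of the 39 was 0.76, against 0.00 over all genes. In 37 of the 39 the 3 rod primed libraries lay above the 3 untreated ones, which 17.6% of all genes also did.

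The largest rises with rod priming were in genes of nucleotide supply and licensing. Tk1, the thymidine kinase that salvages thymidine in dividing cells, stood at 7.68, 5.40 and 9.51 CPM in untreated cells and at 19.5, 20.6 and 28.2 CPM in rod primed cells. The groups did not overlap, and the log2 fold change was 1.60 ± 0.37 (SE from the model, here and below; adjusted p 0.00534). Rrm2, the cell-cycle regulated subunit of ribonucleotide reductase, went from 29.4, 28.3 and 40.4 CPM to 72.8, 85.6 and 99.4 CPM, a log2 fold change of 1.39 ± 0.31 (adjusted p 0.00388). Cdt1, a loader of the Mcm helicase, went from 10.9, 5.67 and 9.17 CPM to 16.5, 20.9 and 21.2 CPM, a log2 fold change of 1.20 ± 0.31 (adjusted p 0.014). In each of the 3 genes every rod primed library was above every untreated one.

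Every functional group took part in the rise. By role, 2 of 4 licensing genes, 3 of 6 Mcm2 to Mcm7 genes, 3 of 6 helicase activators, 6 of 8 polymerase and primase genes and 3 of 5 clamp and clamp loader genes were called higher, as were 2 of 4 Okazaki fragment and single-strand binding genes, 4 of 5 nucleotide supply genes and Uhrf1, which brings the maintenance methyltransferase to newly copied DNA. Within the helicase ring Mcm3 (log2 fold change 1.07 ± 0.27), Mcm5 (0.78 ± 0.22) and Mcm4 (0.74 ± 0.24) were called. Mcm2 (0.61 ± 0.25), Mcm7 (0.59 ± 0.21) and Mcm6 (0.50 ± 0.24) were not, with adjusted p of 0.121, 0.0773 and 0.196. Cdc6 rose by 1.04 ± 0.27 and Pcna by 0.92 ± 0.18 (adjusted p 0.012 and 0.00134), whereas Orc1, at 1.49 to 3.23 CPM in rod primed cells, overlapped with untreated cells (0.57 ± 0.43, adjusted p 0.45). The count of 24 fell to 3 without rod primed replicate 3 and to 7 without untreated replicate 2. Beside this rise, summed retinal progenitor markers were 1281 to 1523 CPM in rod primed cells, Muller glia markers 1127 to 1426 CPM against 441.4 to 546.2 CPM in untreated cells, and mesenchyme markers 18.4 to 115 CPM against 3.40 to 24.2 CPM. Amacrine and horizontal cell markers were lower, at 320.9 to 379.7 CPM against 520.1 to 610.3 CPM, as were ganglion cell markers, at 98.7 to 289 CPM against 312 to 529 CPM. Their part in the result was not tested.

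Cone primed and rod primed cells were compared directly, with the rod primed libraries serving again. Of the 39 genes 15 were lower in cone primed cells and 0 higher, against 4.77% of all genes called lower and 2.5% called higher, and the median log2 fold change was -0.68 (all genes -0.01). The cone primed libraries lay below the rod primed ones for 31 of the 39, which held for 15.5% of all genes. Tk1 was at 6.80, 8.81 and 5.45 CPM in the cone primed libraries, 3.23-fold below rod primed cells (log2 fold change -1.69 ± 0.37, adjusted p 0.00482). Rrm2 was at 26.1, 50.6 and 25.1 CPM, 2.52-fold lower (-1.33 ± 0.31, adjusted p 0.00721), and Cdt1 was 2.12-fold lower (-1.08 ± 0.31, adjusted p 0.0347). Pcna (-0.79 ± 0.18), Cdc6 (-0.87 ± 0.27), Mcm3 (-0.94 ± 0.27) and Rfc3 (-0.78 ± 0.18) were also called. This count depended on single libraries: it was 2 without cone primed replicate 3 or rod primed replicate 3, 4 without cone primed replicate 1, 8 without rod primed replicate 2 and 23 without cone primed replicate 2.

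At day 5 the cone culture had lower levels of replication genes than the rod culture. Of the 39 genes 21 were lower and 0 higher, against 5.8% of all genes called lower and 3.48% called higher, and the median log2 fold change was -0.74 (all genes 0.01). The 3 cone libraries lay below the 3 rod libraries for 33 of the 39, which held for 16.1% of all genes. Called genes were found in every role: 3 of 4 licensing genes, 4 of 6 Mcm2 to Mcm7 genes, 2 of 6 helicase activators, 3 of 8 polymerase and primase genes, 2 of 5 clamp and clamp loader genes, 2 of 4 Okazaki fragment and single-strand binding genes, 4 of 5 nucleotide supply genes and Uhrf1.

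Rrm2 showed the largest difference. Its level was 18.4, 21.1 and 19.1 CPM in the cone culture and 67.4, 49.6 and 58.2 CPM in the rod culture at day 5. The lowest rod library was above every cone library, and the log2 fold change was -1.58 ± 0.31 (2.99-fold lower, adjusted p 0.00141). Tk1 was 2.87-fold lower (4.21, 5.72 and 6.63 CPM against 19.4, 10.2 and 18.1 CPM, adjusted p 0.00775), and Rfc3 was 2.66-fold lower (10.9, 8.88 and 9.82 CPM against 28.8, 23.5 and 26.6 CPM, adjusted p 4.87e-06). Both genes again had no overlap between the groups. Pole, the catalytic subunit of the leading-strand polymerase, differed by -1.18 ± 0.27, Uhrf1 by -1.15 ± 0.27, Mcm3 by -1.10 ± 0.27, Mcm5 by -1.04 ± 0.23, Cdc6 by -1.04 ± 0.27 and Pcna by -0.94 ± 0.18, all called. Mcm4 (-0.85 ± 0.24) and Mcm6 (-0.76 ± 0.24) were called, while Mcm2 (-0.72 ± 0.25), Mcm7 (-0.37 ± 0.21) and Orc1 (-0.77 ± 0.41) were not. Gins4, a GINS subunit, was nearly level (-0.03 ± 0.19). The count of 21 was 6 without cone day 5 replicate 1 and 10 without rod day 5 replicate 1. At the same day summed retinal progenitor markers were 849.5 to 917.6 CPM in the cone culture and 1066 to 1176 CPM in the rod culture, and photoreceptor markers were 1486 to 1877 CPM and 689 to 1221 CPM. Muller glia markers were 1023 to 1385 CPM in the cone culture and 1915 to 2186 CPM in the rod culture, and amacrine and horizontal cell markers 363 to 455 CPM and 184 to 280.5 CPM. Their part in the result was not tested.

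At the later days 1 to 3 genes were called. At day 12, 1 of the 39 was called, Rfc3, lower in the cone culture (4.12% of all genes were called lower and 5.98% higher), and the median was 0.09. The members' share did not exceed that of all genes. Rod day 12 replicate 2, the library that stood apart, was low (Mcm3 was at 59.1, 25.3 and 46.4 CPM in the rod libraries and at 50.5, 48.8 and 62.6 CPM in the cone libraries). Without it the count was still 1, and it was 2 without rod day 12 replicate 1. Summed photoreceptor markers were 1072 CPM in rod day 12 replicate 2, against 78.5 and 156 CPM in replicates 1 and 3. Mesenchyme markers were 225 CPM, against 586 and 434 CPM. Their part in the result was not tested. At day 21, 3 genes were lower in the cone culture, and 0 higher, against 3.14% of all genes called lower and 5.86% higher: Pole2, a polymerase epsilon subunit (-1.42 ± 0.43, adjusted p 0.0388), Rfc3 (-0.96 ± 0.17) and Rfc2 (-0.41 ± 0.12, adjusted p 0.0267). In all, 22 had an unadjusted p under 0.05, 37 of 39 were fitted lower and the median was -0.47 (all genes 0.03). The 3 cone libraries lay below the 3 rod libraries for 24 of the 39, which held for 10.2% of all genes. Rfc2 was not called with the compared libraries fitted alone (adjusted p 0.202). The count of 3 became 1 without cone day 21 replicate 1, cone day 21 replicate 2 or rod day 21 replicate 2. At day 35 only Rfc3 of the 39 was called (4.51% of all genes were lower and 7.77% higher), with a median of -0.11. Here too the members' share did not exceed that of all genes.

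**Figure D3:**
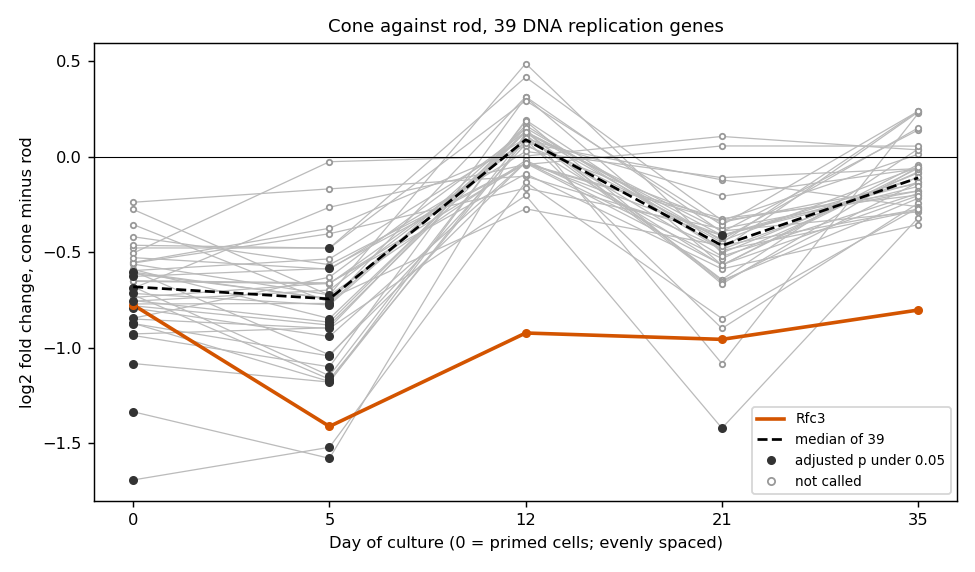
Fitted log2 fold change of cone against rod (vertical axis; negative means lower in cone) for each of the 39 genes at days 0, 5, 12, 21 and 35 (horizontal axis, evenly spaced; each line is a gene, filled points passed an adjusted p of 0.05). The dashed median lies at -0.68, -0.74, 0.09, -0.47 and -0.11, and Rfc3 (orange) stays between -1.41 and -0.78 at all 5 days.

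Rfc3 was the 1 member called lower in the cone culture at all 5 days. The share of all genes called at all 5 days is not given here. Its cone levels were 13.1, 13.6 and 11.2 CPM after priming, 10.9, 8.88 and 9.82 CPM at day 5, and 23.8, 19.3 and 17.2 CPM at day 35. The rod levels were 20.1, 19.0 and 25.7 CPM, then 28.8, 23.5 and 26.6 CPM, and 31.9, 33.1 and 40.1 CPM at day 35. On every day the lowest rod library was above the highest cone library. The differences were -0.92 ± 0.17 at day 12 (adjusted p 0.000611), -0.96 ± 0.17 at day 21 (adjusted p 0.000463) and -0.80 ± 0.17 at day 35 (adjusted p 0.00184), and these 3 calls held when any 1 library was left out (highest adjusted p 0.0167). With the compared libraries fitted alone the day 12 call was lost (-0.94, adjusted p 0.107).

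**Figure D4:**
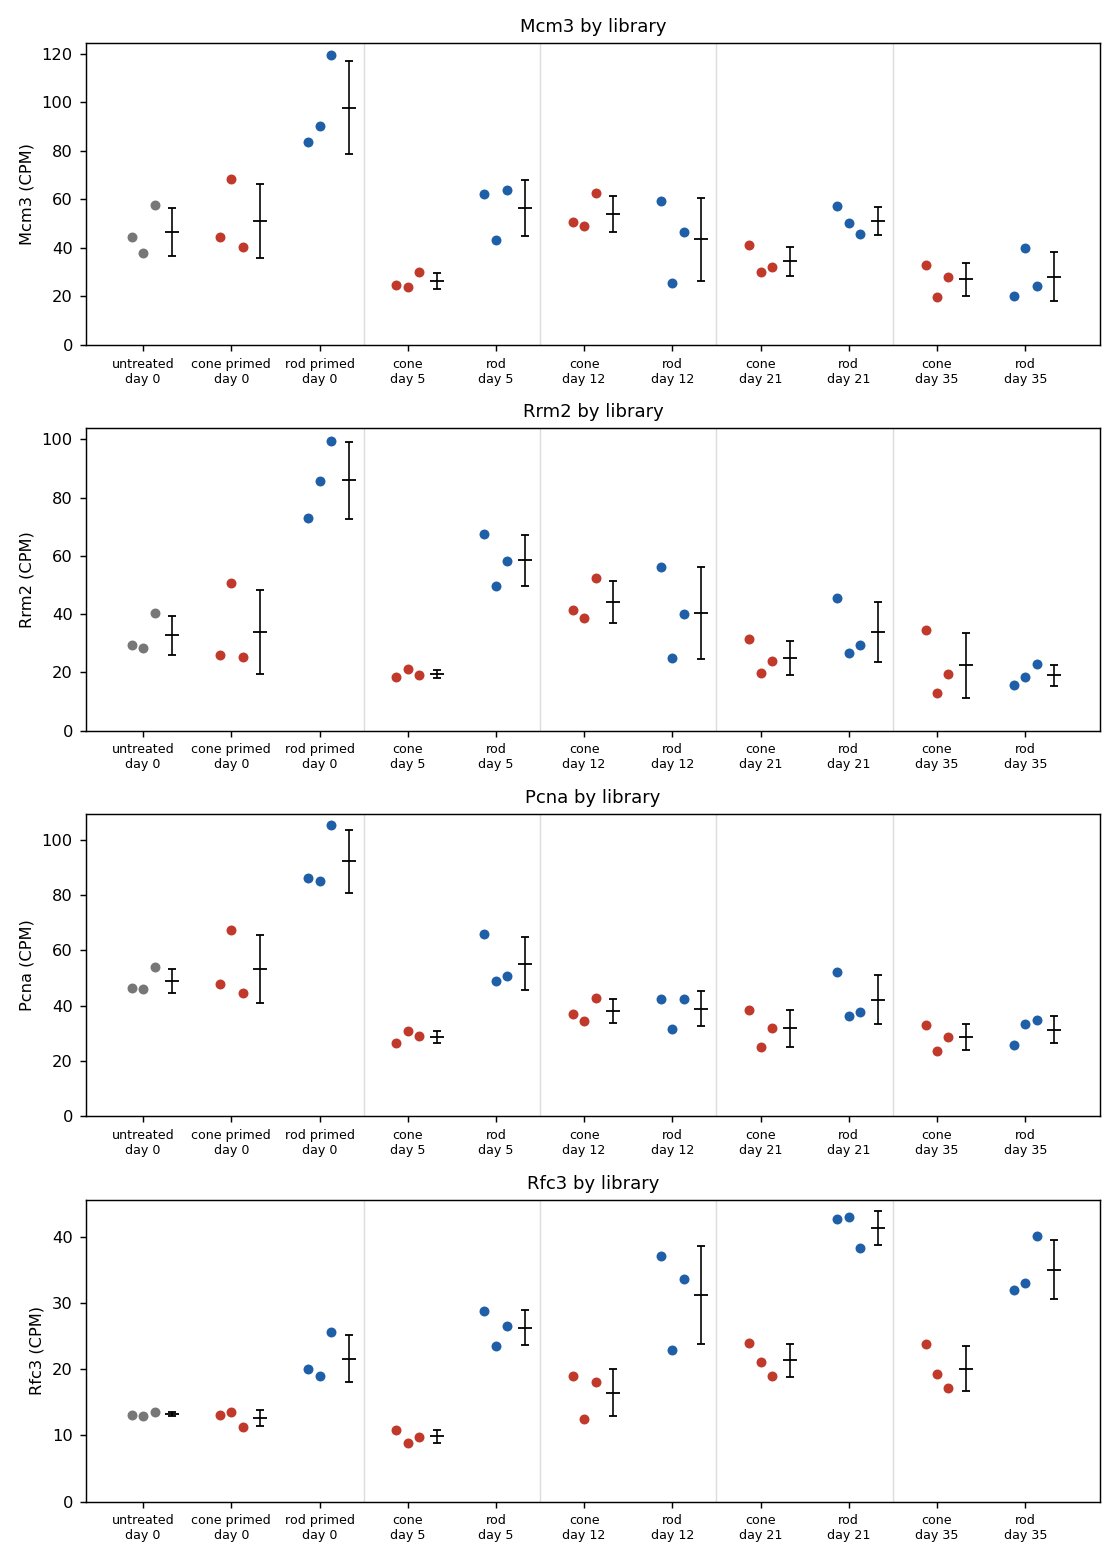
Levels in CPM (vertical axes, from 0) of Mcm3, Rrm2, Pcna and Rfc3 in each library (points) of the 11 groups, with the mean and SD of each group in black. Mcm3, Rrm2 and Pcna are highest in rod primed cells (72.8 CPM or more) and low at day 35, whereas Rfc3 is higher at rod day 35 (31.9 to 40.1 CPM) than in rod primed cells (19.0 to 25.7 CPM).

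Within the cone culture 17 genes fell by day 5 and 13 rose by day 12, and none was called in either later step. The fall and the rise shared the cone day 5 libraries, which also served in the comparison with the rod culture at day 5. These results are therefore not independent of each other. From primed cells to day 5, 17 were lower and 0 higher (10.2% of all genes were called lower and 12.2% higher), with a median of -0.66 (all genes 0.05). For 28 of them every day 5 library was below every primed library, as for 21.0% of all genes. The largest falls were in Uhrf1 (40.4, 81.0 and 42.9 CPM to 22.0, 23.3 and 26.5 CPM, log2 fold change -1.20 ± 0.27), Mcm6 (74.9, 117 and 72.7 CPM to 34.9, 37.2 and 43.8 CPM, -1.19 ± 0.24) and Cdt1 (-1.16 ± 0.32). In the first 2 of these genes no day 5 library reached the lowest primed library. Of the Mcm2 to Mcm7 genes 5 of 6 fell, Mcm7 being the exception (-0.54 ± 0.21), Pcna fell by 0.89 on the log2 scale, and Cdc6 fell by 0.84. Rrm2 (-0.80 ± 0.31) and Orc1 (0.17 ± 0.43) were not called. Without cone primed replicate 2, the highest library of its group, the count was 6, and without cone day 5 replicate 1 it was 9.

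From day 5 to day 12 of the cone culture 13 of the 39 genes were higher and 0 lower. This step moved much of the transcriptome, and 24.6% of all genes were called higher and 18.6% lower, so the members' share stood near that background. For 22 of the 39 the day 12 libraries lay above the day 5 libraries, as for 29.9% of all genes. Rrm2 rose from 18.4, 21.1 and 19.1 CPM to 41.3, 38.7 and 52.3 CPM (log2 fold change 1.18 ± 0.31, adjusted p 0.00314), Tk1 from 4.21, 5.72 and 6.63 CPM to 11.9, 8.46 and 16.9 CPM (1.17 ± 0.37, adjusted p 0.0118), and Pole from 17.0, 21.3 and 24.4 CPM to 33.5, 41.2 and 54.6 CPM (1.04 ± 0.27, adjusted p 0.00258). No day 12 library of these 3 genes fell to the day 5 range. Mcm3 (1.04 ± 0.27), Mcm2 (0.83 ± 0.25), Mcm4 (0.71 ± 0.24) and Mcm5 (0.58 ± 0.23) were called, while Mcm6 (0.56 ± 0.24), Mcm7 (-0.15 ± 0.21), Pcna (0.41 ± 0.18), Cdc6 (0.64 ± 0.27) and Orc1 (0.45 ± 0.42) were not. The count was 5 without cone day 12 replicate 3, 6 without cone day 5 replicate 1 and 8 without cone day 5 replicate 2. Over the same step summed photoreceptor markers went from 1486 to 1877 CPM to 88.5 to 337 CPM, and mesenchyme markers from 56.0 to 124 CPM to 1187 to 1714 CPM. Their part in the result was not tested. From day 12 to day 21 edgeR called 0 of 39 (3.36% of all genes were called) and 17 had an unadjusted p under 0.05. DESeq2 called 4 (1032 of all genes) and voom 3 (818 of all genes), and 36 were fitted lower with a median of -0.48. From day 21 to day 35 edgeR, DESeq2 and voom called 0 (over all genes, 0.915% were called in edgeR, 311 in DESeq2 and 2357 in voom), and 1 had an unadjusted p under 0.05 in edgeR.

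The rod culture fell from its higher start, and no later step had a member called higher in edgeR. From primed cells to day 5, 15 genes were lower and 0 higher (8.79% of all genes were called lower and 8.76% higher), with a median of -0.62 (all genes 0.05). Every day 5 library was below every primed library for 32 of them, as for 18.7% of all genes. Cdt1 went from 16.5, 20.9 and 21.2 CPM to 10.3, 8.29 and 9.51 CPM (log2 fold change -1.06 ± 0.31, adjusted p 0.019), Dut, which keeps uracil out of DNA, from 47.1, 50.4 and 58.5 CPM to 30.2, 24.7 and 25.6 CPM (-0.96 ± 0.19, adjusted p 0.000707), and Mcm2 from 80.3, 85.4 and 101 CPM to 50.1, 45.1 and 54.8 CPM (-0.83 ± 0.25, adjusted p 0.0221). Every day 5 library of these 3 genes was below every rod primed library. Mcm3, Mcm6, Mcm7 and Pcna also fell, whereas Mcm4 (-0.64 ± 0.23), Mcm5 (-0.62 ± 0.22), Cdc6 (-0.67 ± 0.26), Orc1 (0.17 ± 0.42) and Rrm2 (-0.56 ± 0.30) were not called. The count was 2 without rod primed replicate 3 or rod day 5 replicate 2, 6 without rod day 5 replicate 3 and 8 without rod primed replicate 2.

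From day 5 to day 12 of the rod culture 2 genes were lower (5.59% of all genes were called lower and 12.7% higher), Gins1 (6.18, 5.51 and 6.25 CPM to 3.36, 2.39 and 3.75 CPM, -0.92 ± 0.29, adjusted p 0.0249) and Orc6 (18.8, 13.7 and 16.4 CPM to 11.3, 11.1 and 11.5 CPM, -0.52 ± 0.15, adjusted p 0.0171). The members' share did not exceed that of all genes. Both genes had no overlap between the days, and the count was 0 with the compared libraries fitted alone. It was also 0 without rod day 5 replicate 1, 1 without rod day 5 replicate 3 or rod day 12 replicate 2, and 3 without rod day 5 replicate 2. From day 12 to day 21 edgeR and DESeq2 called 0 (11.2% of all genes were called in edgeR), voom called 5 (5892 of all 18150 genes), 1 had an unadjusted p under 0.05, and edgeR called 1 without rod day 12 replicate 1. From day 21 to day 35, 2 genes were lower (0.876% of all genes were called lower and 0.667% higher): Mcm10, which helps to activate the helicase (22.1, 17.9 and 16.0 CPM to 4.59, 10.5 and 8.84 CPM, -1.22 ± 0.30, adjusted p 0.0379), and Lig1, the ligase that joins Okazaki fragments (64.6, 50.8 and 54.1 CPM to 23.4, 40.4 and 34.5 CPM, -0.78 ± 0.18, adjusted p 0.0288). In this step 38 of 39 were fitted lower, 23 had an unadjusted p under 0.05 and the median was -0.52 (all genes 0.00). Both calls were lost with the compared libraries fitted alone (adjusted p 0.136 and 0.144), and leaving out rod day 35 replicate 2 gave 5, and leaving out any other library of the step gave 0.

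Whether the cultures took different steps was tested as the cone step minus the rod step. These tests reused the libraries of the steps above and are not independent of them. For day 0 to day 5 edgeR, DESeq2 and voom called 0 of 39 (over all genes, 0.562% were called in edgeR, 279 in DESeq2 and 387 in voom), and 1 had an unadjusted p under 0.05 in edgeR. For day 5 to day 12, 5 genes were called, all with a step that was higher in the cone culture (2.09% of all genes were called in that direction and 1.12% in the other). These were Rrm2 (difference of steps 1.71 ± 0.43 on the log2 scale, adjusted p 0.032), Mcm3 (1.41 ± 0.38, adjusted p 0.0405), Uhrf1 (1.33 ± 0.37, adjusted p 0.0471), Pcna (0.91 ± 0.26, adjusted p 0.0479) and Orc6 (0.89 ± 0.22, adjusted p 0.0263). All 39 differences were fitted above 0, with a median of 0.84 (all genes -0.01). In the plot of levels by library, Rrm2 and Mcm3 rise from day 5 to day 12 in the cone libraries and fall or hold in the rod libraries. With the compared libraries fitted alone 0 of the 39 were called (adjusted p 0.0628 for Rrm2, 0.102 for Mcm3 and 0.106 for Uhrf1). The result was not stable to single libraries either: 0 genes were called without cone day 5 replicate 1, 2 or 3, cone day 12 replicate 1 or 3, rod day 5 replicate 1 or rod day 12 replicate 2, 1 without rod day 5 replicate 3 or rod day 12 replicate 3, and 3 without rod day 5 replicate 2, while 9 were called without cone day 12 replicate 2 and 17 without rod day 12 replicate 1. A separate F test took the cone minus rod difference at all 5 days and tested whether it was constant. It called Rrm2 (adjusted p 0.012), Orc6 (adjusted p 0.0209) and Mcm3 (adjusted p 0.0494), 3 of 39 against 9.22% of all genes. The members' share thus did not exceed that of all genes. The count was 1 without cone day 5 replicate 3, 6 without rod day 35 replicate 2, and 7 without cone primed replicate 2, cone day 35 replicate 2 or rod day 12 replicate 1.

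Over the whole course, from primed cells to day 35, most members declined in both cultures. In the cone culture 27 of 39 were lower and 2 higher (26.5% and 31.1% of all genes), with a median log2 fold change of -0.83 (all genes 0.03). In the rod culture 36 were lower and 1 higher (26.2% and 29.4% of all genes), with a median of -1.43 (all genes 0.04). The comparisons share no library, and 27 genes were lower in both. The share of all genes lower in both is not given here, so this joint count has no background beside it. Groups without overlap were lower at day 35 for 23 of the 39 in the cone culture (30.3% of all genes) and for 35 in the rod culture (30.0% of all genes). The called falls covered 3 of 4 licensing genes, 5 of 6 Mcm2 to Mcm7 genes, 3 of 6 helicase activators and 5 of 8 polymerase and primase genes in the cone culture, and 4 of 4, 6 of 6, 5 of 6 and 8 of 8 in the rod culture. Counts with 1 library left out were 22 to 33 in the cone culture and 34 to 37 in the rod culture.

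Lig1 fell most in the cone culture, from 102, 106 and 100.4 CPM to 36.4, 24.4 and 30.6 CPM (log2 fold change -1.76 ± 0.19, adjusted p 8.05e-09), followed by Uhrf1 (-1.69 ± 0.27) and Gins1 (-1.45 ± 0.30). In the rod culture Uhrf1 fell most, from 83.3, 82.5 and 98.3 CPM to 15.1, 18.7 and 19.2 CPM (-2.31 ± 0.28, adjusted p 8.37e-08), followed by Rrm2 (-2.18 ± 0.32) and Cdt1 (-2.14 ± 0.33). None of the 6 changes had overlapping groups. Pcna fell by 0.90 on the log2 scale in the cone culture and by 1.56 in the rod culture, Mcm3 by 0.92 and 1.80, Cdc6 by 1.05 and 1.88, Mcm5 by 1.21 and 1.73, Mcm6 by 1.22 and 1.71, Mcm7 by 1.39 and 1.80, and Mcm2 by 0.98 and 1.46. Mcm4 (-0.51 ± 0.24, not called) and Orc1 (-0.04 ± 0.45, not called) were exceptions in the cone culture, and in the rod culture they fell by 0.99 and 1.03. Orc1 had few counts (8 in its lowest library), its rod call had an adjusted p of 0.0454 and it was lost with some libraries left out (up to 0.159).

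Outside these falls lay 12 members in the cone culture and 3 in the rod culture. In the cone culture Gins2 (0.06 ± 0.31), Gins3 (-0.32 ± 0.25), Gins4 (0.29 ± 0.20), Pold2 (-0.12 ± 0.21), Pole (-0.60 ± 0.27), Pole2 (-0.83 ± 0.44), Rrm2 (-0.61 ± 0.31) and Tk1 (0.04 ± 0.38) were not called, beside Mcm4 and Orc1, and each overlapped between the groups. In the rod culture only Gins4 (-0.25 ± 0.19) and Rpa1 (0.07 ± 0.14) were not called. Rpa1, the large subunit of the single-strand binding protein, rose in the cone culture from 33.7, 38.2 and 32.2 CPM to 50.3, 54.9 and 43.6 CPM (0.51 ± 0.14, adjusted p 0.00354). Rfc3 rose in both, by 0.67 ± 0.17 in the cone culture (adjusted p 0.00178) and by 0.70 ± 0.17 in the rod culture (adjusted p 0.00102). For 38 of the 39 genes the fitted change was lower in the rod culture. The cone and rod changes start from different primed levels, with all 39 fitted lower in cone primed than in rod primed cells. The difference of the changes therefore restates that day 0 gap in part and is not a separate result. When the difference of these changes was tested, an added comparison chosen after seeing the data, 1 gene was called, Rrm2 (1.57 ± 0.44, adjusted p 0.0309), with 3.87% of all genes called in that direction and 1.79% in the other. The members' share did not exceed that of all genes. The median difference was 0.53 (all genes 0.07) and 12 genes had an unadjusted p under 0.05. The call was lost with the compared libraries fitted alone (adjusted p 0.0799) and without cone primed replicate 1 or 3, rod primed replicate 2 or 3, cone day 35 replicate 1 or rod day 35 replicate 1, 2 genes were called without cone primed replicate 2 or rod day 35 replicate 2 or 3, and 3 without cone day 35 replicate 2.

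**Figure D5:**
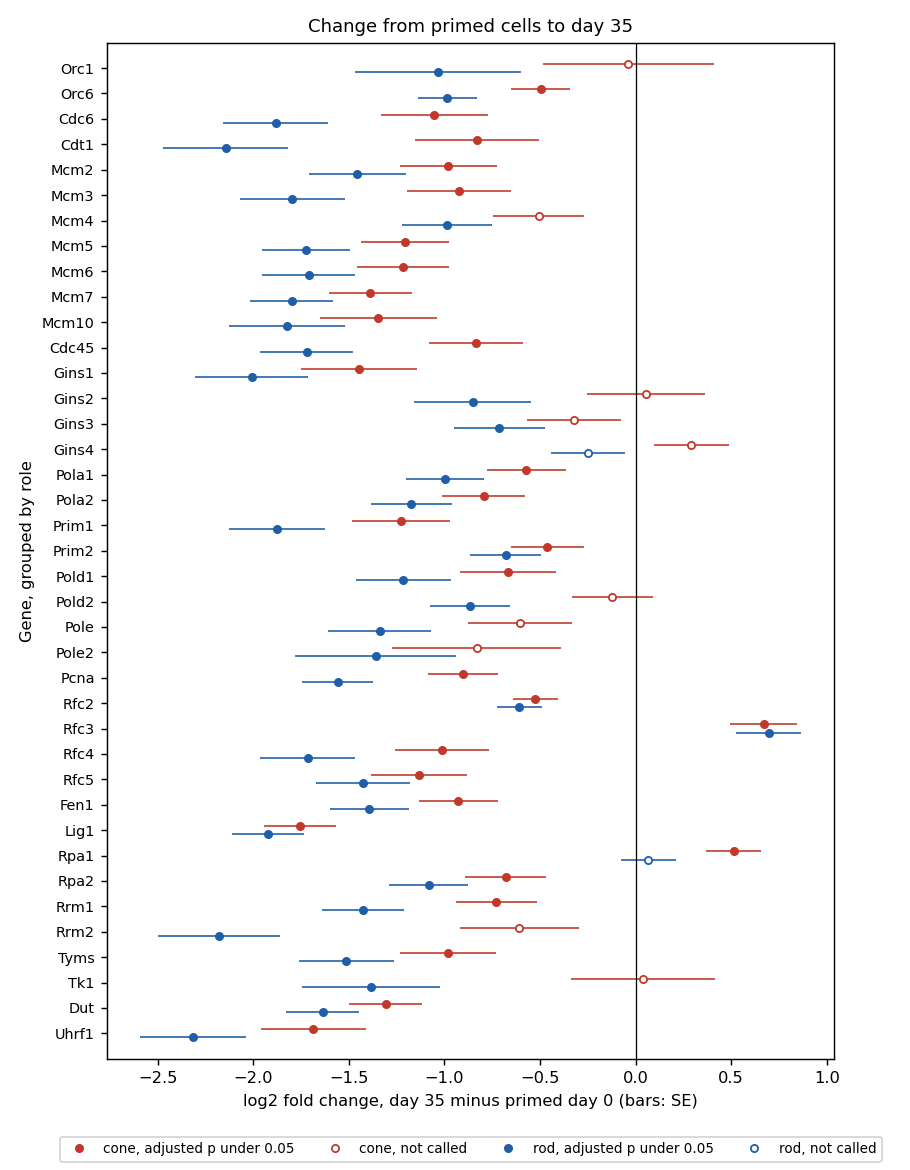
Fitted log2 fold change from primed cells to day 35 (horizontal axis, bars are SE) for each gene (vertical axis, grouped by role) in the cone (red) and rod (blue) culture, filled where the adjusted p was under 0.05. Most points lie left of 0, further left in rod than in cone, and Rfc3 lies right of 0 in both (0.67 and 0.70). Each culture is measured from its own primed cells, and rod primed levels were higher.

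Other cells' transcripts changed over the same course. Summed photoreceptor markers went from 782 to 1242 CPM in cone primed cells to 32.1 to 58.5 CPM at cone day 35 (with Opn1sw at 0), and from 688.6 to 1369.6 CPM to 26.8 to 31.6 CPM in the rod culture (with Nr2e3 at 0). Muller glia markers rose from 463 to 590.03 CPM to 4097 to 5100.4 CPM in the cone culture and from 1127 to 1426 CPM to 5002 to 7682 CPM in the rod culture. Mesenchyme markers reached 1820.2 to 5229 CPM at cone day 35 and 783 to 1562 CPM at rod day 35, and microglia markers 16.8 to 88.3 CPM and 1.28 to 2.99 CPM. Retinal progenitor markers moved less, from 1105 to 1288 CPM to 856 to 1005 CPM in the cone culture and from 1281 to 1523 CPM to 1032 to 1515 CPM in the rod culture, although Fgf15 was at 0 in all 3 cone day 35 libraries. Astrocyte markers were 3.25 to 5.66 CPM in cone primed cells and 215.6 to 400.3 CPM at cone day 35. In the rod culture they were 4.53 to 13.5 CPM in primed cells and 225 to 357 CPM at day 35. The part of these shifts in the decline of the replication genes was not tested.

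The clamp loader showed how unevenly partners of 1 complex could move. Rfc2, Rfc4 and Rfc5 fell in both cultures by day 35, with log2 fold changes of -0.53 ± 0.12, -1.02 ± 0.25 and -1.13 ± 0.25 for cone and -0.61 ± 0.12, -1.72 ± 0.25 and -1.43 ± 0.25 for rod. Per kilobase of annotated exon, the ratio of Rfc3 to Rfc4 was 0.585, 0.900 and 0.696 in untreated cells, 0.544 to 0.649 in cone primed cells, 0.739, 0.704 and 0.794 in rod primed cells, 1.82, 2.27 and 1.81 at cone day 35 and 4.84, 3.69 and 3.77 at rod day 35. Every day 35 ratio to Rfc4 was above every day 0 ratio, and at day 35 the rod ratios were above the cone ratios. With Rfc2 as the partner both statements held too. With Rfc5 the day 35 ratios also lay above those of day 0, but the cultures overlapped. These ratios were 3.37, 5.20 and 3.99 at cone day 35 and 6.57, 4.04 and 6.42 at rod day 35. The size of a ratio depends on the annotated lengths, which are the same for all groups. The exons of Rfc3 overlap no other annotated gene, whereas 12.7% of the exonic bases of Rfc4, 10.7% of those of Rfc5 and 15.1% of those of Rfc2 lie over a gene on the opposite strand. The strand setting of the counting is not given in the sources used here.

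The subunits of ribonucleotide reductase also shifted against each other. The ratio of Rrm2 to Rrm1 per kilobase was 1.36, 1.51 and 1.76 in untreated cells and 2.10, 2.42 and 2.52 in the rod primed libraries. By day 35 it was 2.10, 1.47 and 1.40 in the cone culture and 1.44, 1.20 and 1.56 in the rod culture. The rod primed ratios lay above all untreated ones, and the day 35 rod ratios lay below all rod primed ones. For the helicase ring, mean levels per kilobase in untreated cells ran from 6.45 ± 0.69 (SD, n = 3) for Mcm5 to 17.2 ± 2.12 for Mcm6, in CPM per kilobase. Lengths were the union of all annotated exons of a gene, so differences between genes depend in part on the annotation. Mcm3 was at 12.4 ± 2.65 in untreated cells and 26.1 ± 5.07 in rod primed cells, where it stood beside Mcm6 (24.2 ± 2.71). At rod day 35 the 6 lay between 3.35 ± 0.60 (Mcm5) and 9.26 ± 3.13 (Mcm4).

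Replication genes outside the 39 were followed with a list of 43, among them Mcm and Orc relatives, kinases, checkpoint mediators and chromatin assembly factors. With rod priming 18 were higher (6.71% of all genes) and 0 lower, and in the cone culture at day 5 14 were lower than in the rod culture (5.8% of all genes) and 0 higher. By day 35, 29 were lower and 3 higher in the cone culture (26.5% and 31.1% of all genes), and 32 were lower and 3 higher in the rod culture (26.2% and 29.4% of all genes), with medians of -0.68 and -1.09. The largest falls were in Wdhd1, a replisome hub (-1.83 ± 0.24), and Ticrr, which works in helicase activation (-1.71 ± 0.32), in the cone culture, and in Ticrr (-2.16 ± 0.31) and Recql4 (-2.09 ± 0.37, with 6 counts in its lowest library) in the rod culture. The largest rises were in Pold4, the smallest polymerase delta subunit, from a mean of 1.92 to 9.94 CPM in cone (2.37 ± 0.29) and from 2.09 to 9.85 CPM in rod (2.21 ± 0.28), and in Rrm2b, the p53-inducible relative of Rrm2 (0.98 ± 0.13 and 1.13 ± 0.13). Samhd1, which degrades deoxynucleotides, was the remaining gene higher in both (0.60 ± 0.13 and 0.33 ± 0.14). Pold3, the partner subunit, fell by 1.09 and 1.19 on the log2 scale.

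Of 13 genes of the E2F and retinoblastoma families, 5 were higher (6.71% of all genes) and 0 lower with rod priming, and 4 were lower (5.8% of all genes) and 0 higher in the cone culture at day 5. By day 35, 5 were lower and 2 higher in the cone culture, against 26.5% and 31.1% of all genes. In the rod culture 7 were lower and 1 higher, against 26.2% and 29.4%. With 13 genes, the cone count of falls stood near that background and the counts of rises below it. The activator E2f2 had the largest fitted fall in both (-2.84 ± 0.49 in cone and -3.36 ± 0.48 in rod). It rested on few counts at day 35, with 1.88, 0.172 and 1.37 CPM in the cone libraries (2 counts in the lowest) and 0.510, 2.91 and 0.710 CPM in the rod libraries (6 counts in the lowest), so the size of its fall is imprecise. It was followed by E2f7 in cone (-1.22 ± 0.35) and E2f8 in rod (-2.30 ± 0.32), both atypical repressors. The genes that rose were E2f6 (0.70 ± 0.15) and the pocket protein gene Rbl2 (0.47 ± 0.12) in cone and Rbl2 in rod (0.77 ± 0.12). With rod priming E2f1 rose from a mean of 17.6 to 47.1 CPM (1.42 ± 0.27, adjusted p 0.000754), and at day 5 it was lower in the cone than in the rod culture by 1.42 on the log2 scale (-1.42 ± 0.27, adjusted p 0.000958).

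Some members share exonic sequence with other genes, and without a stated strand setting their counts are uncertain. Over the exons of Fen1, the flap endonuclease, 78.8% of bases lie under an antisense gene and 5.37% under Tmem258, and 67.3% of the exonic bases of Gins2 lie under Gse1 on the opposite strand. Shares were smaller for Orc1 (10.8%), Mcm7 (7.25% with Ap4m1), Orc6 (6.93%), Cdc45 (5.96%) and Lig1 (5.79%), and Pole2 shares 245 exonic bases with a gene on the same strand. Fen1 fell by 0.93 in cone and by 1.39 in rod on the log2 scale from primed cells to day 35, close to the median of the 39 in each culture, and Gins2 fell in rod by 0.85 (adjusted p 0.0199, and up to 0.121 with a library left out).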

How the data were processed

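RNA from 33 libraries was read from gene tables. Per the submitters' processing notes, HISAT2, StringTie and HTSeq were used with genome build GRCm38, with no versions given. Raw read counts for 47729 genes were deposited by the authors, 1 table per library. The second table per library holds TPM, FPKM and coverage (a signal per base), per the file headers. In the deposited TPM, 32 of the 39 members are listed at 0 in at least 1 library (7 to 24 members per library), and Pcna is listed at 0 in 15 libraries although its lowest count is 276. TPM therefore served only as an alternative, and deposited FPKM and coverage were not used. Genes received 26.9% to 34.9% of the counted reads, and 5 summary lines per library were left out. No column of other samples was present in the tables used.

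Genes were filtered with filterByExpr (minimum count 10), which left 18150. A quasi-likelihood model of edgeR 4.0.16 with group as the term and TMM scaling was fitted to all 33 libraries (R 4.3.3), with Benjamini-Hochberg adjustment over all genes in each of 21 comparisons, 1 of them added later. The common biological coefficient of variation was 0.213. Alternatives were RLE size factors, no filter, DESeq2 1.42.0, voom with quality weights (limma 3.58.1), a replicate block, the compared libraries alone, log2(TPM + 1) with limma, and leaving out each library. On simulated data (17509 genes, cone against rod at day 5) the steps recovered 64% of 2-fold and 90% of 4-fold changes, with 5 false calls. Exon lengths, the union of all annotated exons of a gene, come from GENCODE release 21 of the M series, where 33 of the 39 members had the position of the deposited tables. Promoters come from RefSeq. Summaries used Python 3.11.15, numpy 2.4.6, pandas 2.3.3 and matplotlib 3.10.9. Named were Mcm2 to Mcm7, Orc1, Cdc6, Pcna and Rrm2, up to 3 largest called rises and falls per comparison, the members not called or called against the majority by day 35, and the 2 largest rises and falls by day 35 from each further list. Other genes named, among them Pold3, Samhd1 and E2f1, were chosen after their values were seen. The members and lists were chosen with earlier results of these data known.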

Additional observations from a re-analysis of the deposited data

Results flagged for a closer look

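Members for which the test of a difference between the cultures passed are listed here. For the step from day 5 to day 12, the cone step exceeded the rod step by 1.41 for Mcm3, 0.89 for Orc6, 0.91 for Pcna, 1.71 for Rrm2 and 1.33 for Uhrf1, on the log2 scale (2.09% of all genes were called in that direction). None of these 5 was called when the compared libraries were fitted alone. For a cone minus rod difference that changes with day, the adjusted p of the F test was 0.0494 for Mcm3, 0.0209 for Orc6 and 0.012 for Rrm2. That test called 9.22% of all genes, a share that the members did not exceed. For the change from primed cells to day 35, the cone change exceeded the rod change by 1.57 for Rrm2, a comparison added after seeing the data (3.87% of all genes were called in that direction). This call too was lost with the compared libraries alone (adjusted p 0.0799), and the members' share did not exceed that of all genes.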

How the results depend on the processing

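No count of called members changed its main direction under the alternatives that used counts. Parentheses hold the number of all genes called by the same method, which is not given for the F test or the DESeq2 test in its place. With voom quality weights the counts were 36 for cone against rod primed (3200), 32 at day 5 (3371), 2 at day 12 (4146) and 7 at day 21 (3699). The same method gave 3 for cone day 12 to 21 (818), 27 for rod day 0 to 5 (4896), 15 for rod day 5 to 12 (6955), 5 for rod day 12 to 21 (5892) and 4 for rod day 21 to 35 (874). It also gave 18 for the difference of steps from day 5 to day 12 (2379), 6 for that from day 0 to day 35 (2085) and 20 for the F test. For rod day 5 to 12 and day 12 to 21 the members' share with voom stood near or below that of all genes. DESeq2 gave 4 for cone day 12 to 21 (1032), 5 for rod day 5 to 12 (3646), 7 for rod day 21 to 35 (740) and 12 for the difference of steps from day 5 to day 12 (1223). In place of the F test, DESeq2 used a likelihood ratio test fitted without the untreated libraries, which called 9. The compared libraries alone gave 0 at day 12 (363), 7 at day 21 (1247), 2 for cone day 12 to 21 (357) and 25 for rod day 0 to 5 (3901). They gave 0 for rod day 5 to 12 (965), rod day 21 to 35 (3) and both differences of steps that had calls (67 from day 5 to day 12 and 1067 from day 0 to day 35). Without a filter, 1 was called for rod day 5 to 12 (2696) and 4 for rod day 21 to 35 (288), and RLE size factors gave 3 for the difference of steps from day 5 to day 12 (591).

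On log2(TPM + 1), where 24 members could be tested, 0 were called for rod primed against untreated (24 of all genes). For cone against rod 0 were called on each of the 5 days (25, 174, 115, 50 and 29 of all genes, in day order). Rod day 0 to 5 gave 0 (1605 of all genes), as did rod day 21 to 35 (6) and the F test. Both differences of steps that had calls in edgeR gave 0 too (15 of all genes from day 5 to day 12 and 6 from day 0 to day 35). Most of these tests thus called few genes of any kind on this scale. On that scale, 2 were called by day 35 in each culture (1530 of all genes in cone and 1214 in rod) and 1 for rod day 5 to 12 (159). In the opposite direction 2 were called for cone day 0 to 5 (1757 of all genes in either direction) and 1 for cone day 5 to 12 (1699). Signs turned on TPM for Pole2 at day 21 (0.15), Rfc3 by day 35 in cone (-0.21) and rod (-0.062), Rpa1 in cone (-0.61), Tk1 in cone against rod primed (0.064), Mcm3 in the difference of steps from day 5 to day 12 (-0.22) and Mcm2 in rod day 0 to 5 (0.22). The TPM scale also moved the median over all genes, by 0.58 for cone day 0 to 5 and 0.53 for rod day 0 to 5, against 0.05 in both with edgeR. The cause was not tested. A limma fit on log2(TPM + 0.1) was also run, and its results are not given here.

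With 1 library left out, counts ranged from 3 to 24 for rod primed against untreated and from 2 to 23 for cone against rod primed. For cone against rod they ran from 6 to 20 at day 5, 1 to 2 at day 12, 1 to 2 at day 21 and 1 to 1 at day 35. In the cone culture the ranges were 6 to 18 (day 0 to 5), 5 to 14 (5 to 12) and 22 to 33 (0 to 35), and in the rod culture 2 to 13 (0 to 5), 0 to 3 (5 to 12), 0 to 1 (12 to 21), 0 to 5 (21 to 35) and 34 to 37 (0 to 35). Differences of steps gave 0 to 17 (5 to 12) and 0 to 3 (0 to 35), and the F test 1 to 7. Cone primed against untreated, cone day 12 to 21, cone day 21 to 35 and the difference of steps from day 0 to day 5 gave 0 throughout.

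Replicate numbers are shared by all groups, but they were not used as pairs: in none of the 17 comparisons of groups did all 3 same-numbered pairs correlate above 0.1 in their deviations from the group means. With the replicate number as a block, 25 members were called for rod primed against untreated (1978 of all genes), 12 for cone against rod primed (1363) and 20 at day 5 (1736). By day 35 the block gave 29 in cone (10482) and 37 in rod (10090), and it gave 7 for the difference of steps from day 5 to day 12 (742). Of 40 gene values named for their size, 40 kept their call under the block and under DESeq2, 39 under voom and RLE and 38 without a filter. With the compared libraries alone 30 of 40 did, and with a library left out 184 of 264. On log2(TPM + 1) 0 of 31 did, 24 losing the call and 7 changing sign. Low counts limit Orc1, Pole2 and E2f2, whose lowest libraries hold 8, 6 and 2 counts.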
